A study of Homo sapiens with 3 samples.

Results

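The kinetochore genes described here are 48 genes that build the centromere, the kinetochore and the spindle checkpoint: the centromeric histone CENPA and its loading factors, the constitutive centromere network, the KMN network (the MIS12 complex, the NDC80 complex, and KNL1 with ZWINT), the RZZ and SKA complexes, the corona proteins, the checkpoint proteins, the chromosomal passenger complex and the shugoshins. They were chosen by name. Probe sets annotated to 1 gene were found for 46 of the 48, among 19775 genes in all. CENPP and CENPJ were not analysed here, and CENPJ is known as a centriole protein despite its name.

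The data came from IMR-90 cells, a line of human fetal lung fibroblasts, sampled 24 h after transfection. The 3 treatments were SETD8 siRNA 1, SETD8 siRNA 2 and the control siRNA, labelled GL3. The gene, now called KMT5A, encodes a methyltransferase of histone H4. Each treatment has 1 array, which leaves the spread between cultures unmeasured, and no test between treatments was possible. All cells received an siRNA with RNAiMAX in DMEM F12 medium with serum, so no array shows untransfected cells. Below, siRNA 1 and siRNA 2 stand for the SETD8 siRNAs, and 2 values given without names are in that order. KMT5A signal on its 4 probe sets was 45.9% to 74.7% of control with SETD8 siRNA 1 and 62.2% to 86.3% of control with SETD8 siRNA 2. All 10 fibroblast markers passed the signal filter, with a summed signal of 150357 with SETD8 siRNA 1 and 172729 with SETD8 siRNA 2, against 159739 with the control siRNA. Their median log2 fold change was -0.03 with siRNA 1 and 0.14 with siRNA 2, but some single markers moved more. DCN had 7745.9 and 22971.2, against 20075.4 with the control siRNA, and LUM had 10701.6 and 23797.7, against 13728.6. S100A4 was above control on both arrays, with 2256.6 and 3965.8, against 1237.3. The filter was passed by 1 of 7 leukocyte markers, with summed signals of 147.0, 180.5 and 101.7 on the arrays in the same order, and by 2 of 9 epithelial markers, with 229.2, 381.4 and 400.5. It was also passed by 3 of 7 endothelial markers, with 1592.9, 2204.7 and 1400.6. Among defining markers, CDH5 of endothelium and ESRP1 of epithelium were at or below the floor on all 3 arrays. Most of the endothelial sum was TEK (1274.8 with SETD8 siRNA 1 and 2033.1 with SETD8 siRNA 2, against 1251.3 with the control siRNA). PECAM1 had 135.0 and 52.7, against 49.0 with the control siRNA, and VWF had 130.5 and 80.9, against 59.7, so both were highest with siRNA 1. The epithelial EPCAM had 49.1 and 194.2, against 157.1. The part of other cell types in the results below was not tested.

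The kinetochore is the protein assembly that joins a chromosome to spindle microtubules. Its inner layer sits on nucleosomes that carry CENPA, its outer layer binds microtubules through the NDC80 complex, and checkpoint proteins gather on it until every chromosome is attached. Many of these genes are transcribed mainly in late S phase, G2 and mitosis, whereas others are also used by cells outside division. In RNA from a whole culture, fewer dividing cells and less RNA per dividing cell cannot be told apart.

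The decrease with the SETD8 siRNAs was broad and uneven. A decrease of 2-fold or more with both was found for 33 of the 46, against 398 of the 12307 genes compared (3.23%). Counted for one siRNA at a time, it was found for 36 of the 46 with siRNA 1 (7.75% of all genes) and for 35 with siRNA 2 (6.65%). None was at least 2-fold higher with both, against 1.5% of all genes. The median log2 fold change of the 46 was -2.24 with siRNA 1 and -2.08 with siRNA 2, or 4.73-fold and 4.24-fold lower, and the medians over all genes were -0.02 and -0.01. At any size, 44 of the 46 were lower with both siRNAs, against 33.9% of all genes. The exceptions were CENPT and MAD1L1. At least 4-fold lower with both were 22 of the 46 (0.967% of all genes), and 4 were at least 8-fold lower with both (0.0975%): SPC25, BUB1B, CENPF and BUB1. With the threshold at 1.5-fold the count was 38 (7.37%), and at 3-fold 29 (1.55%). Ordered by the mean change over both siRNAs, 24 of the 46 lay among the lowest 124 of the 12307 genes. Both comparisons use the same control array, so they are not independent of each other.

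As a yardstick, since each treatment has 1 array, the siRNA 2 array was set against the siRNA 1 array gene by gene. The 95th percentile of that difference, in absolute log2 units, was 2.21 in the lowest quartile of signal, 1.72 in the second, 1.25 in the third and 1.14 in the highest. Changes past that yardstick with both siRNAs, in the lower direction, were seen for 29 of the 46 genes and for 1.52% of all genes. CENPI, CENPN, CENPQ and INCENP met the 2-fold rule but did not pass the yardstick with both. The array that lay at least 2-fold above both others, or at least 2-fold below both, was the siRNA 1 array for 1 kinetochore gene, the siRNA 2 array for 0 and the control array for 33. Over all genes these counts were 724, 480 and 583. The control array counts restate the 2-fold rule with both siRNAs, in either direction, and are not a separate result. All 46 passed the filter on low signal. The control array alone would have passed all 46, and each SETD8 siRNA array alone 45, the exception on both being SGO1.

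**Figure D1:**
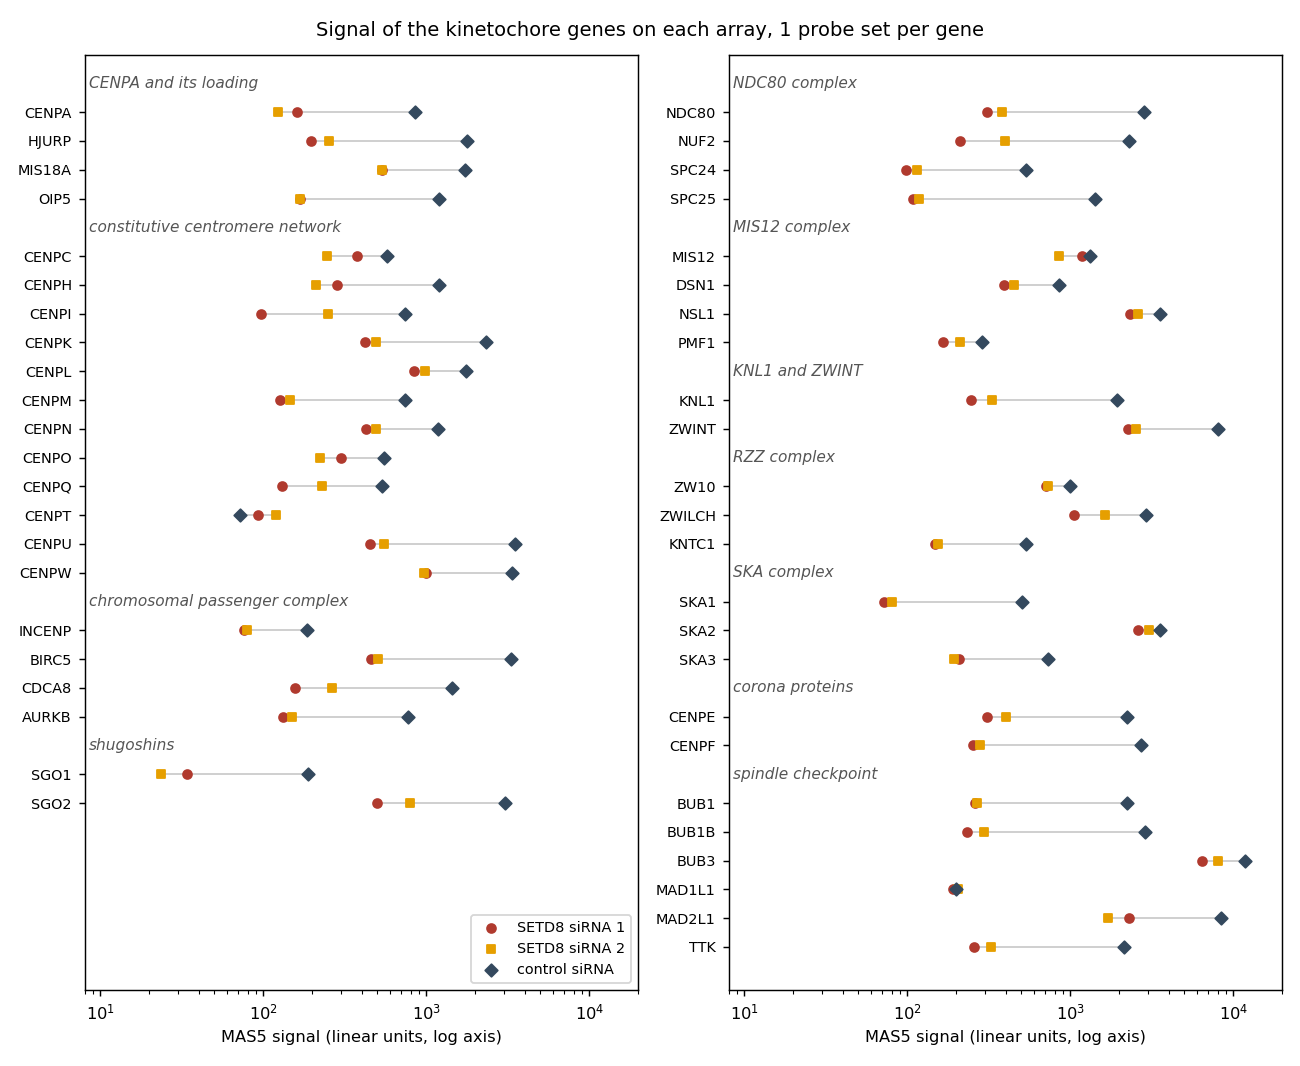
Signal of each of the 46 analysed genes on the 3 arrays, on a log axis in linear MAS5 units, grouped by subcomplex, with 1 probe set per gene and 1 point per array. The control array lies to the right of both SETD8 siRNA arrays for 44 genes, the exceptions being CENPT and MAD1L1, and signals of different genes come from different probes and are not compared with each other.

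To let the regulatory sequence be read beside the values, 5 promoters are shown: those of the 3 genes with the largest mean decrease, SPC25, BUB1B and CENPF, each of which holds a motif searched for, and those of the 2 genes with the smallest mean change, MAD1L1 and SKA2. Each runs 5′ to 3′ from 250 bases before the transcript start to 50 bases after it, in RefSeq sequence of GRCh38.p14. The capitals mark 3 motifs on either strand: the cell cycle genes homology region or CHR (TTTGAA or TTCGAA, the second reading the same on both strands), known from genes expressed in G2 and mitosis as a binding element of the MuvB core, the CCAAT box bound by NF-Y, and an E2F-like site (TTTGGCGC, TTTCCCGC, TTTGCCGC or TTTCGCGC). The motifs do not overlap each other in these 5 windows.
SPC25 promoter, chr2:168890381-168890680, minus strand: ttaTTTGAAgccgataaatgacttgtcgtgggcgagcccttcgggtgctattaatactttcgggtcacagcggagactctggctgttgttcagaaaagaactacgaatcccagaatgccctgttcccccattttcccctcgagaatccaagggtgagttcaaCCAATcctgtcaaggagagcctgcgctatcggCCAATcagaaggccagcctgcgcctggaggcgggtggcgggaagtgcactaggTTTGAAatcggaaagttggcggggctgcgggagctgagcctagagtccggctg
BUB1B promoter, chr15:40160819-40161118, plus strand: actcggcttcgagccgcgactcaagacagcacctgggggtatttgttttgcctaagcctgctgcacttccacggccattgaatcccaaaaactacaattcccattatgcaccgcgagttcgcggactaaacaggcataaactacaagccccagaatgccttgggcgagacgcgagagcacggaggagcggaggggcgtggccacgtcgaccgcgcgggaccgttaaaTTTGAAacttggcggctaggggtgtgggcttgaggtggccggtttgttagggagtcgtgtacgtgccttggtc
CENPF promoter, chr1:214602945-214603244, plus strand: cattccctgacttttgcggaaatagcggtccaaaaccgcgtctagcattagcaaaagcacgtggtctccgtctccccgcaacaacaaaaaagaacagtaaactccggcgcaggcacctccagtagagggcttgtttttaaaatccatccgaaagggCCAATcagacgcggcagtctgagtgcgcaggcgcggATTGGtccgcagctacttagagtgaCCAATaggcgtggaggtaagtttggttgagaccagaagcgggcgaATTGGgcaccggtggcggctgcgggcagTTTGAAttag
MAD1L1 promoter, chr7:2232896-2233195, minus strand: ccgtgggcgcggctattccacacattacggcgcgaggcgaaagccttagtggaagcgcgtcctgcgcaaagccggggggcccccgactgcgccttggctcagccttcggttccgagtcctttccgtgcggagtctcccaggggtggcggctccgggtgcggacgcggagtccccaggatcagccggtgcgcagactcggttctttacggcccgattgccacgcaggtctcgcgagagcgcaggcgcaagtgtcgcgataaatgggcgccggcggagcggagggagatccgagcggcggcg
SKA2 promoter, chr17:59155137-59155436, minus strand: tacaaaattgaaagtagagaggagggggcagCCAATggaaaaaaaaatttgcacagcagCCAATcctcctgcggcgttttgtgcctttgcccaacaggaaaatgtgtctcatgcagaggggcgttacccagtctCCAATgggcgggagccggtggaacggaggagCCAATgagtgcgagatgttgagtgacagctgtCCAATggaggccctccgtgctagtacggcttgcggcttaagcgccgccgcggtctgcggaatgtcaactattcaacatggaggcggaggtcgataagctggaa
SPC25 has CHR matches starting at -247 and -3, counted from the transcript start, and CCAAT boxes at -88 and -56. BUB1B has a CHR match at -23 and no CCAAT box in this window. The CENPF window holds a CHR match at 41 and 4 CCAAT boxes. MAD1L1 has none of the 3 motifs here, and SKA2 has 5 CCAAT boxes without a CHR match.

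CENPA and its loading factors, 4 genes in all, met the 2-fold rule without exception. CENPA, the histone variant that marks the centromere, had a signal of 161.0 with siRNA 1 and 123.5 with siRNA 2, against 853.8 with the control siRNA. HJURP, the chaperone that deposits CENPA, had 195.9 with siRNA 1 and 252.5 with siRNA 2, against 1771.7 with the control siRNA. For both genes the SETD8 siRNA arrays lay close together and the control array far above them, and the log2 fold changes were -2.41 and -2.79 for CENPA (SETD8 siRNA 1, then 2) and -3.18 and -2.81 for HJURP. OIP5 and MIS18A, which encode subunits of the Mis18 complex that prepares the centromere for new CENPA, differed in size. OIP5 had 167.2 with siRNA 1 and 167.0 with siRNA 2, against 1190.3 with the control siRNA, which is 7.12-fold and 7.13-fold lower. MIS18A had 533.3 and 532.1 with siRNA 1 and siRNA 2, against 1718.3 with the control siRNA, which is 3.22-fold and 3.23-fold lower. On the chosen probe sets, these were the closest pairs of SETD8 siRNA values among the 46 genes. The control array was again the high one for both. Another MIS18A probe set that passed the filter gave log2 fold changes of -1.44 with siRNA 1 and -1.88 with siRNA 2.

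The constitutive centromere network, the inner kinetochore layer, was split. Of its 12 analysed genes 8 met the rule, and the medians were -1.90 with siRNA 1 and -1.43 with siRNA 2. All 4 genes of its CENPH, CENPI, CENPK and CENPM group, which bridges the centromeric and outer parts, were lower by that rule, with medians of -2.50 and -2.29. CENPK had 422.0 with siRNA 1 and 493.9 with siRNA 2, against 2320.3 with the control siRNA. CENPM (17.3% and 19.7% of control) and CENPH (23.7% and 17.7% of control) left a similar share on both arrays.

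CENPI differed most between the siRNAs of all 46 genes. Its signal was 96.3 with siRNA 1 and 249.3 with siRNA 2, against 738.7 with the control siRNA. The log2 difference, SETD8 siRNA 2 over SETD8 siRNA 1, was 1.37, below the yardstick of 1.72 for its signal. It was the only gene of the 46 at least 2-fold apart between the SETD8 siRNAs, a rule met by 12.6% of all genes. At 1.5-fold 7 of the 46 were apart (27.8% of all genes), and at 3-fold none was (5.05%). On a second CENPI probe set that passed the filter, the log2 fold change was -1.97 with siRNA 1 and -1.49 with siRNA 2, so the gap there was under 2-fold.

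The CENPU and CENPO group also held unlike members. CENPU, which recruits the kinase PLK1, had 451.1 with siRNA 1 and 547.8 with siRNA 2, against 3471.6 with the control siRNA, a log2 fold change of -2.94 and -2.66. Its partner CENPO had 300.2 and 222.8 with siRNA 1 and siRNA 2, against 547.5 with the control siRNA, under 2-fold with siRNA 1 (-0.87) and past it with siRNA 2 (-1.30). CENPQ, of the same group, stood between them with -2.05 and -1.22. CENPN, which reads the CENPA nucleosome, had -1.47 and -1.26, and its partner CENPL had -1.06 and -0.83, short of 2-fold with siRNA 2.

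CENPC and CENPT, the 2 proteins that connect the inner layer to the outer kinetochore, did not meet the rule. CENPC had 374.3 with siRNA 1 and 244.4 with siRNA 2, against 572.9 with the control siRNA, with log2 fold changes of -0.61 and -1.23. CENPT had 93.1 with siRNA 1 and 120.0 with siRNA 2, against 71.6 with the control siRNA, so both SETD8 siRNA values were above the control value, by 0.38 and 0.75 on the log2 scale. This is a dim probe set, and both values are below the yardstick of 2.21 for its signal. CENPW, the histone-fold partner of CENPT, was at 29.7% of control with siRNA 1 and 28.7% with siRNA 2, so that CENPW met the rule and CENPT did not.

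The NDC80 complex, the microtubule-binding arm of the outer kinetochore, had the lowest median of the subcomplexes with siRNA 1, -3.33, and -2.71 with siRNA 2, and each of its 4 genes was lower by more than 4-fold on both arrays. SPC25 had 108.6 with siRNA 1 and 117.2 with siRNA 2, against 1406.7 with the control siRNA, which leaves 7.72% and 8.33% of control. Only 1 of the 12307 genes had a lower mean change than SPC25. NDC80 itself had 307.2 and 379.9 with siRNA 1 and siRNA 2, against 2811.6 with the control siRNA, and its dimer partner NUF2 had 209.0 and 399.6, against 2303.6. SPC24, the partner of SPC25, had 98.6 and 114.1, against 533.3. The control array was at least 4.67-fold above both SETD8 siRNA arrays for each of the 4 genes. A second SPC24 probe set lay below the floor of 11.7 on all 3 arrays and gives no fold.

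The MIS12 complex, on which the NDC80 complex stands, was the only subcomplex with analysed genes of which none met the rule with both siRNAs. Its medians were -0.70 with siRNA 1 and -0.54 with siRNA 2. NSL1 had 2316.5 with siRNA 1 and 2615.3 with siRNA 2, against 3555.2 with the control siRNA. MIS12 had 1173.1 and 849.6 with siRNA 1 and siRNA 2, against 1316.4 with the control siRNA, and PMF1 had 166.5 and 211.2, against 287.5. In each case the control value was the highest on the chosen probe set, by under 2-fold. The 3 NSL1 probe sets that passed the filter ran from -0.62 to -0.53 with siRNA 1 and from -0.69 to 0.43 with siRNA 2. DSN1 came nearest to the rule (392.0 with siRNA 1 and 450.0 with siRNA 2, against 853.2 with the control siRNA), with log2 fold changes of -1.12 and -0.92. The ranges of the NDC80 and MIS12 complexes did not overlap with either siRNA: the smallest decrease in the NDC80 complex was -2.44 and -2.22, and the largest in the MIS12 complex was -1.12 and -0.92. With 1 array per siRNA this difference between the complexes was not tested.

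KNL1, the third arm of the KMN network and the scaffold for BUB proteins, had 246.1 with siRNA 1 and 328.2 with siRNA 2, against 1939.4 with the control siRNA. ZWINT, which binds KNL1 and helps to recruit the RZZ complex, had 2247.4 and 2526.0 with siRNA 1 and siRNA 2, against 8001.1 with the control siRNA. Both were lower by more than 3-fold on each array, and KNL1 left the smaller share of its control signal (12.7% and 16.9%, against 28.1% and 31.6% for ZWINT).

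**Figure D2:**
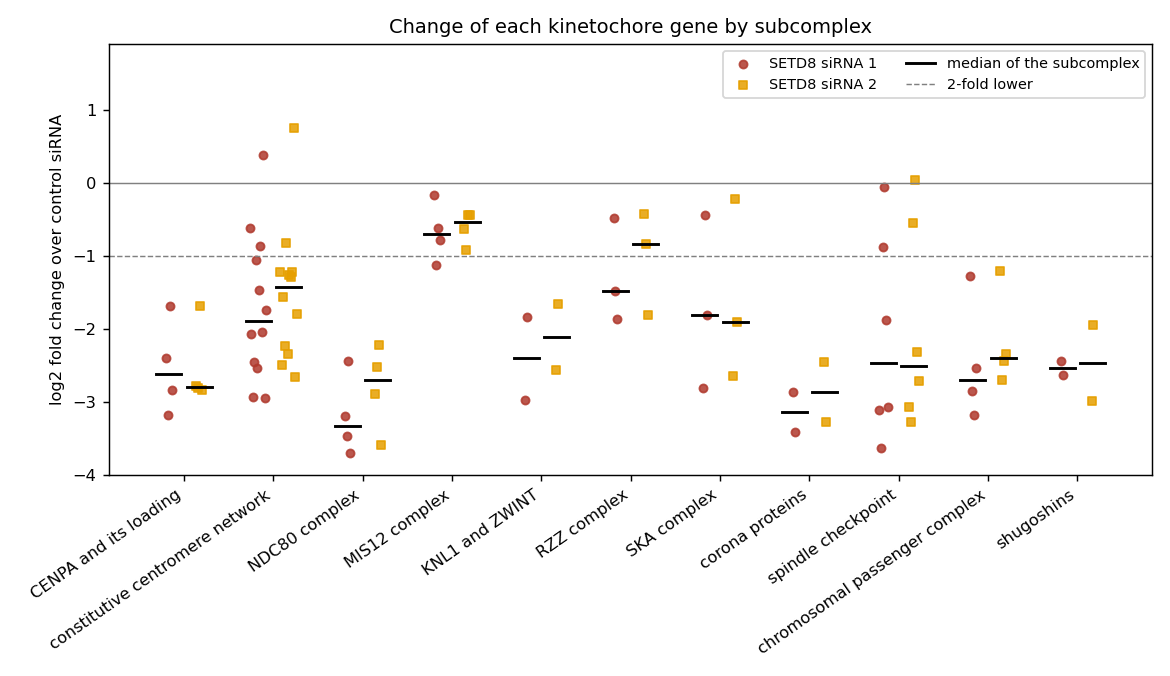
Log2 fold change over the control siRNA of each analysed gene, by subcomplex, for SETD8 siRNA 1 and SETD8 siRNA 2, with 1 point per gene, a black bar at the median and a dashed line at 2-fold lower. The 4 MIS12 complex genes sit near or above the dashed line, and the 4 NDC80 complex genes all lie below -2.

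The RZZ complex carries dynein and the MAD1 and MAD2 proteins to the kinetochore, and its 3 genes differed from each other. KNTC1, the ROD subunit, had 147.3 with siRNA 1 and 153.2 with siRNA 2, against 535.8 with the control siRNA, and met the rule with -1.86 and -1.81. ZWILCH had 1046.0 and 1625.4 with siRNA 1 and siRNA 2, against 2920.5 with the control siRNA, so that it met the rule with siRNA 1 (-1.48) but not with siRNA 2 (-0.85). A second ZWILCH probe set gave -1.77 and -1.74. ZW10, which also works in membrane traffic between the endoplasmic reticulum and the Golgi, had 709.1 and 733.8, against 991.7, or -0.48 and -0.43. The SKA complex, which follows the ends of microtubules, showed a like split. SKA1 had 71.8 with siRNA 1 and 80.5 with siRNA 2, against 505.5 with the control siRNA, and SKA3 had 207.0 and 193.1, against 723.7. SKA2 had 2600.5 and 3026.1, against 3525.9, so its log2 fold changes of -0.44 and -0.22 were the smallest of the complex.

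The corona proteins, which extend from the outer kinetochore before microtubules attach, were both much lower. CENPE, a kinesin that moves chromosomes towards the spindle equator, had 307.2 with siRNA 1 and 405.3 with siRNA 2, against 2230.5 with the control siRNA. CENPF had 254.3 and 279.7 with siRNA 1 and siRNA 2, against 2717.0 with the control siRNA, and thus 9.36% and 10.3% of control.

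In the spindle checkpoint, 4 of 6 genes met the 2-fold rule, and MAD1L1 and BUB3 did not. The largest decreases were those of BUB1B, BUB1 and TTK. BUB1B, which encodes BUBR1 of the mitotic checkpoint complex, had 231.3 with siRNA 1 and 296.8 with siRNA 2, against 2879.6 with the control siRNA. BUB1 had 259.5 and 266.9 with siRNA 1 and siRNA 2, against 2236.6 with the control siRNA, and TTK, which encodes the kinase that starts checkpoint signalling, had 255.2 and 324.1, against 2136.8. Their SETD8 siRNA signals were between 8.03% and 15.2% of control. MAD2L1, which encodes MAD2, was lower by less, with 2295.4 and 1696.8 with siRNA 1 and siRNA 2, against 8424.3 with the control siRNA (-1.88 and -2.31).

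MAD1L1, which encodes the MAD2 partner MAD1, had 190.0 with siRNA 1 and 203.8 with siRNA 2, against 198.0 with the control siRNA. The SETD8 siRNA values lay on either side of the control value, at -0.06 and 0.04 on the log2 scale. BUB3, the partner that BUB1 and BUBR1 share, had 6418.9 and 8081.9 with siRNA 1 and siRNA 2, against 11843 with the control siRNA (-0.88 and -0.55). Its control signal was the highest value, by under 2-fold. The 4 BUB3 probe sets that passed the filter ran from -1.03 to -0.73 with siRNA 1 and from -0.77 to -0.55 with siRNA 2.

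The 4 genes of the chromosomal passenger complex, which corrects faulty attachments at the inner centromere, all met the rule, with medians of -2.70 and -2.39. The kinase gene AURKB had 131.6 with siRNA 1 and 150.3 with siRNA 2, against 766.2 with the control siRNA. CDCA8, which encodes borealin, had 157.0 and 263.2 with siRNA 1 and siRNA 2, against 1427.3 with the control siRNA, and BIRC5, which encodes survivin, had 454.1 and 505.5, against 3288.5. On the chosen probe sets, the smallest of their decreases was 5.10-fold, for AURKB with siRNA 2. The 4 BIRC5 probe sets that passed the filter ran from -2.86 to -1.23 with siRNA 1 and from -2.70 to -1.03 with siRNA 2. INCENP, the scaffold of the complex, was lower by less: 76.2 and 79.8 with siRNA 1 and siRNA 2, against 185.1 with the control siRNA, or -1.28 and -1.21, below the yardstick for its signal. The shugoshins guard cohesin at the centromere. SGO2 had 494.3 with siRNA 1 and 793.3 with siRNA 2, against 3054.1 with the control siRNA. SGO1 had 34.2 and 23.5, against 186.5, where both SETD8 siRNA signals lie below the median of their arrays (45.3 and 44.9).

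Across subcomplexes, the 13 genes outside the rule fell into 3 kinds. Lower by 2-fold with siRNA 1 alone were CENPL, DSN1 and ZWILCH, and with siRNA 2 alone CENPC and CENPO. The remaining 8, under 2-fold with both, were MIS12, NSL1, PMF1, ZW10, SKA2, BUB3, MAD1L1 and CENPT. Of the 11 subcomplexes with analysed genes, 6 had every gene lower by the rule: CENPA and its loading, the NDC80 complex, KNL1 and ZWINT, the corona proteins, the chromosomal passenger complex and the shugoshins. The size of the decrease leaned to SETD8 siRNA 1, which had the lower value of the pair for 35 of the 46 genes, where this was so for 49.8% of all genes. The median difference, SETD8 siRNA 2 over SETD8 siRNA 1, was 0.19 on the log2 scale over the 46, and -0.0025 over all genes. KMT5A was also the lower of the pair with siRNA 1 on all 4 of its probe sets. The part of knockdown depth in this lean was not tested.

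**Figure D3:**
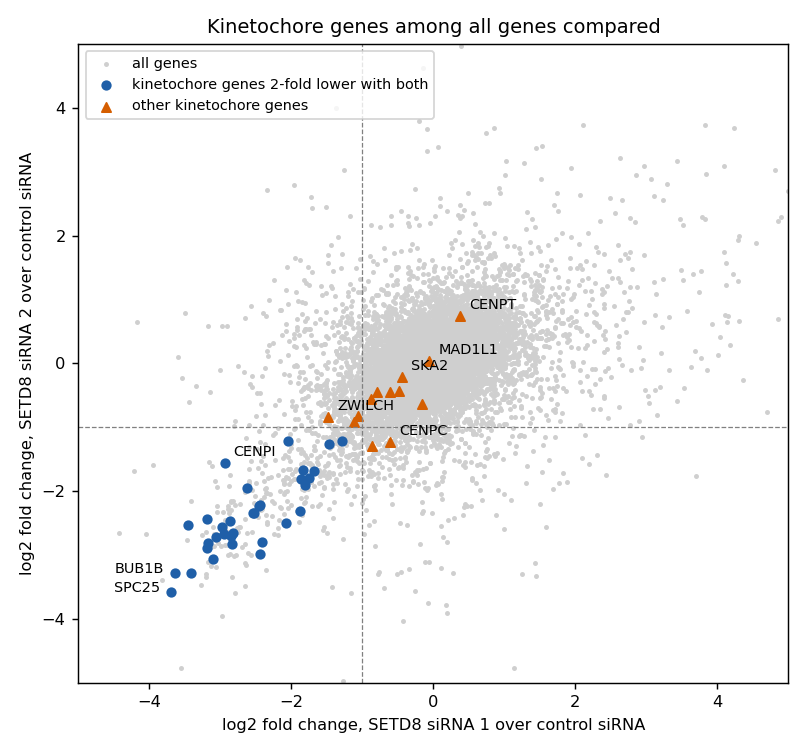
Log2 fold change over the control siRNA with SETD8 siRNA 1 (horizontal) and SETD8 siRNA 2 (vertical) for all 12307 genes in grey, the 33 kinetochore genes at least 2-fold lower with both in blue and the other 13 as orange triangles; dashed lines mark 2-fold lower, and 22 genes beyond 5 on an axis are not drawn. The blue points fill the lower left, from near -1 to past -3, and both axes share the control array.

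Separate probe sets for a gene repeat the measurement in the same RNA. The 46 genes had 87 probe sets, of which 81 were lower than control on both SETD8 siRNA arrays once signals under the floor were set to it. This count takes a decrease of any size, and 14 of the 87 were at or below the floor on an array. The filter was passed by 71 of the 87. The same share over all probe sets was not computed, and 33.9% of all genes were lower at any size with both. For 16 genes over 1 probe set passed the filter, and 15 of them had the same call by the 2-fold rule on all of those, the exception being ZWILCH. The standard deviation of the log2 fold change over a gene's probe sets had a median of 0.28 with siRNA 1 and 0.19 with siRNA 2. BIRC5 spread most, with -2.28 ± 0.77 with siRNA 1 and -2.17 ± 0.78 with siRNA 2 (SD over 4 probe sets). CENPF gave -3.20 ± 0.31 and -3.30 ± 0.03 (SD over 2 probe sets).

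**Figure D4:**
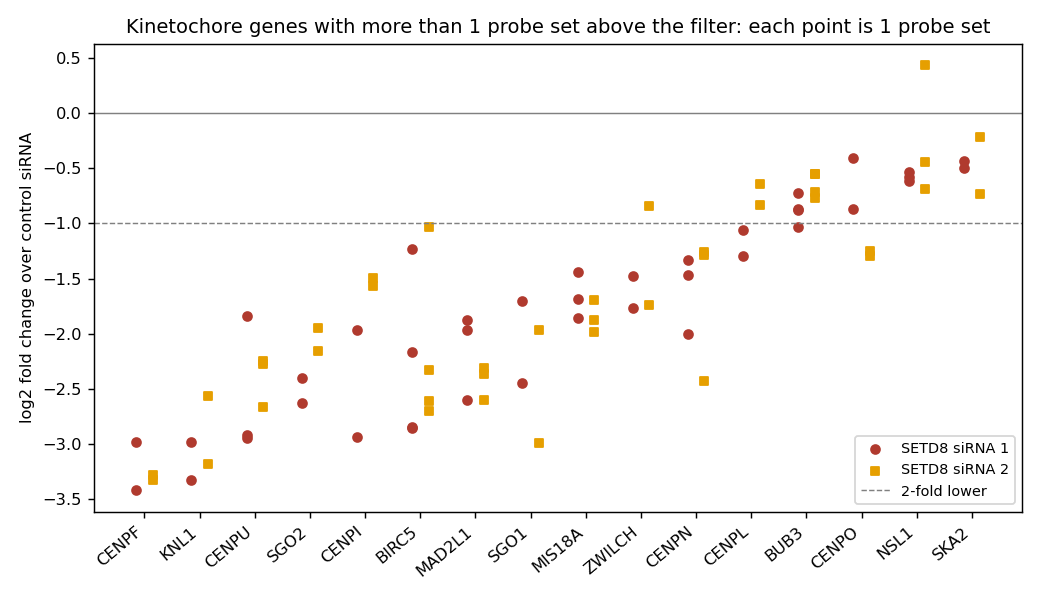
Log2 fold change over the control siRNA for the 16 genes with more than 1 probe set above the filter, each point being 1 probe set on the SETD8 siRNA 1 or SETD8 siRNA 2 array. Probe sets of a gene mostly lie on the same side of the dashed 2-fold line, and ZWILCH has 1 of its 2 probe sets above it with siRNA 2.

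Promoter windows were available for 37 of the 46 genes, and these were searched for the motifs shown above. A gene with more than 1 promoter counted if any of them held the motif. A CHR match was in 21 of the 37 windows (56.8%), against 19.5% of 27305 genes with a promoter and 16.1% of the 10031 such genes above the signal filter. Among the kinetochore genes the match was in 18 of 26 that met the 2-fold rule and in 3 of 11 that did not, which were CENPC, CENPO and ZW10. Among all genes above the filter that met the rule, kinetochore genes included, it was in 127 of 321 (39.6%). Kinetochore genes with the match had median log2 fold changes of -2.45 with siRNA 1 and -2.53 with siRNA 2, and the 16 without it -1.76 and -1.07. Over all genes above the filter, the medians were -0.10 and -0.07 with the match, and -0.0064 and -0.0014 without it. The 2-fold rule was met by 7.85% and 2.31% of those genes. Within both sets of kinetochore genes the spread is wide: SPC24, AURKB, CENPK and CENPU had no CHR match, and each was lower by more than 4-fold on both arrays. Most matches lay near the transcript start. In the last 50 bases before the start and the 50 after it, a window chosen after the positions were seen, 18 of 37 genes had a match (48.6%), against 6.24% of all genes and 27.7% of all genes that met the rule. By that window, 17 of the 26 genes that met the rule had it, and 1 of the 11 that did not, CENPO. CDCA8 and BUB1B each had TTTGAA starting at -23, SGO1 had TTCGAA at -3, and NDC80 had 2 matches, at -3 and 4.

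A CCAAT box was in 25 of the 37 windows (67.6%), against 39.7% of all genes and 43.2% of genes above the filter. It was in 19 of 26 kinetochore genes that met the rule and 6 of 11 that did not, and in 191 of the 321 genes of any kind that met it (59.5%). The E2F-like site was in 4 windows (10.8%), those of CENPA, CENPU, OIP5 and MIS12, against 3.99% of all genes and 6.59% of genes above the filter. It was in 11.5% of the kinetochore genes that met the rule, below the 17.1% of all genes that met it. Both a CHR match and a CCAAT box were in 15 of the 37 (40.5%), against 9.02% of all genes and 28.7% of all genes that met the rule. These are matches of letters and not measured binding.

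**Figure D5:**
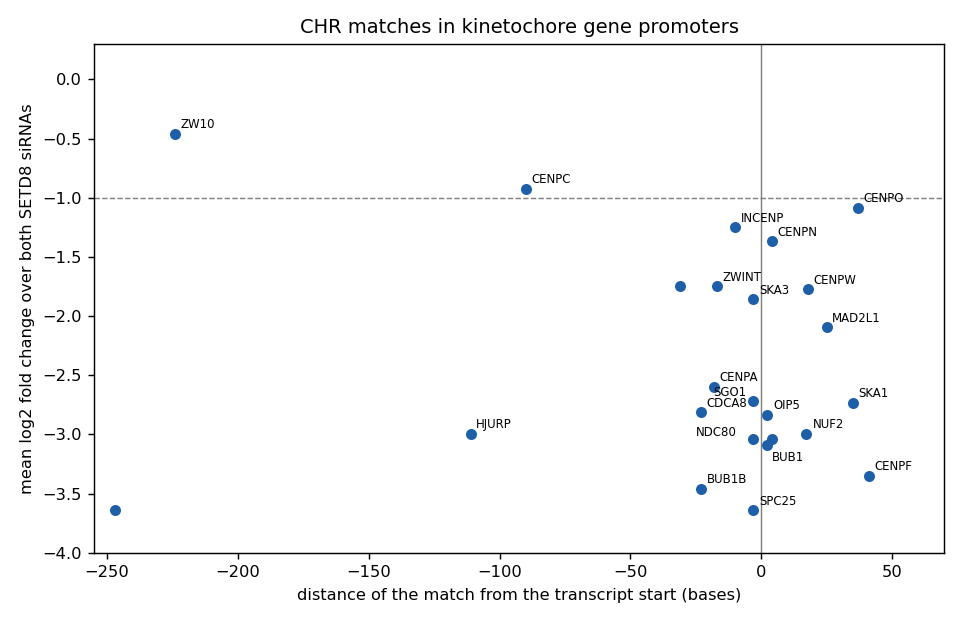
Mean log2 fold change over both SETD8 siRNAs against the distance of each CHR match from the transcript start, in bases. The 21 kinetochore genes with a match are drawn. SPC25, NDC80 and ZWINT have 2 points each, those of ZWINT being the same match counted from 2 transcript starts. The vertical line marks the start and the dashed line 2-fold lower. Most points lie within 50 bases of the start, and the matches of ZW10, HJURP and CENPC and 1 of the matches of SPC25 lie farther upstream.

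Other genes that work at the kinetochore came from lists of its phosphatases, microtubule proteins, checkpoint and centromere factors. The filter left 35, of which 9 met the 2-fold rule in the lower direction (3.23% of all genes) and 0 in the higher direction (1.5% of all genes). The medians over the 35 were -0.40 with siRNA 1 and -0.43 with siRNA 2. Among 12 kinetochore microtubule genes 5 were lower by the rule. NUSAP1, which bundles spindle microtubules, had 702.2 with siRNA 1 and 655.4 with siRNA 2, against 5233.3 with the control siRNA, and KIF2C, the kinesin that takes microtubules apart at centromeres, had 419.9 and 364.0, against 2943.3. SPAG5, which encodes astrin, and the kinesin KIF18A had -2.75 and -2.64, and -2.12 and -1.68. Both were below control by more than 3-fold on each SETD8 siRNA array. KNSTRN, the fifth, had -1.18 and -1.09 and was named after its values were seen.

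Among 8 other checkpoint and corona genes, 2 met the rule: CDC20, the activator of the anaphase promoting complex that the checkpoint restrains (246.1 with siRNA 1 and 401.4 with siRNA 2, against 2738.9 with the control siRNA), and TRIP13, which recycles MAD2 (387.6 and 480.9, against 1966.5). NDE1, a dynein partner that binds CENPF, had -0.60 and -0.60, and MAD2L2 had -0.58 and -0.53. Of 5 other centromere genes, ITGB3BP, which encodes CENP-R, met the rule with -1.85 and -1.97. The counts given above for the constitutive centromere network do not include these 5 genes. NASP, a histone chaperone, had -0.58 and -1.51, and CENPV had -0.89 and -1.55, past 2-fold with siRNA 2 alone. Among 10 kinetochore phosphatase and kinase genes PLK1, the mitotic kinase, was the one that met the rule, at low signal (46.3 with siRNA 1 and 26.6 with siRNA 2, against 128.5 with the control siRNA). The phosphatase genes PPP1CC (-0.40 and -0.55), PPP2R5E (-0.59 and -0.36) and PPP2R5D (-0.20 and -0.47) were under 2-fold.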

How the data were processed

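The authors deposited intensity values, 1 linear signal per probe set and array, which per the submitters' processing notes came from MAS5. The sources used here do not give its version or settings. Biotin-labelled cRNA was hybridised, per the labels' protocols. Scaling of this kind, to one level per array, would hide a shift of all genes, and the trimmed mean signal was 497 on each array. The values were therefore used without rescaling.

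Of 54613 probe sets, 41091 carried 1 gene symbol in the platform's annotation. RefSeq symbols replaced 41037 of these through the gene number. The 1801 with more than 1 symbol and the 11721 unlisted here were not used. A floor of 11.7 (25th percentile over the arrays) replaced lower signals. No signal of the 46 genes' chosen probe sets was that low (the lowest was 23.5). The probe set with the highest mean log2 signal stood for its gene, and genes were kept if that mean reached a signal of 42.0, leaving 12307. With 1 array per siRNA no test was run. Precision is limited by having 3 arrays. A gene was counted when it differed from control by 2-fold or more, in one direction, with both siRNAs. The rule was also run on simulated arrays, with noise set below the log2 SD of 0.57 estimated for a single array here. That run therefore cannot show how the rule behaves at the noise of these data.

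The genes, lists and subcomplexes were chosen with earlier results of these data known. All 46 analysed genes are named, with up to 4 of each other list by largest change in the same direction. Detection calls were not used. Other settings tried were quantile normalization, scaling to the median, a pseudocount of 16, no filter or a filter at the 75th percentile, averaged probe sets, dropping shared probe sets, thresholds of 1.5-fold and 3-fold, and shorter promoter windows. Shared here means that the name of the probe set ends in _s_at, _a_at or _x_at. Computations used pandas 2.3.3 and numpy 2.4.6 under Python 3.11.15, and figures matplotlib 3.10.9.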

Additional observations from a re-analysis of the deposited data

How the results depend on the processing

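The 33 genes that met the 2-fold rule were the same 33 under median scaling, quantile normalization, a pseudocount of 16, no filter, and a probe set chosen on the SETD8 siRNA arrays alone (this last and the promoter window of 50 bases were chosen after seeing the data). Averaging probe sets also gave 33, of which 32 were shared: ZWILCH entered, and BUB1 left because its mean with 4 dim probe sets fell below the signal filter. Without shared probe sets 26 of 36 remained, with 1.5-fold 38 of 46 and with 3-fold 29 of 46 (background 7.37% and 1.55%). Of the 33, those lost without shared probe sets were CDCA8, CENPA, CENPF, CENPH, KNTC1, SKA1 and ZWINT. They left the comparison because they had no other probe set that passed the signal filter. A filter at the 75th percentile kept 29 genes, with 20 lower with both, 23 with SETD8 siRNA 1 and 21 with SETD8 siRNA 2, against 36 and 35 of 46, because fewer genes were compared. Genes 2-fold apart between the SETD8 siRNAs numbered 0 under that filter, with averaged probe sets and at 3-fold, and 7 at 1.5-fold, against 1.

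The medians of small subcomplexes moved where members dropped out. The SKA complex had -0.44 and -0.22 under the 75th percentile filter, which left SKA2, and -1.12 and -1.06 without shared probe sets. The spindle checkpoint had -3.07 with SETD8 siRNA 1 under both settings, and KNL1 and ZWINT had -2.98 without shared probe sets, which left KNL1. In promoters, the E2F-like site fell to 2.7% of windows from 100 bases before the start and to 0% from 50 bases before it, where the CCAAT box was in 35.1%. The CHR share was 51.4% and 48.6%. Of 1208 recomputed values of single genes, none called at 2-fold changed direction, and 12 moved by over 0.57, the SD of 1 array on the log2 scale estimated from siRNA 2 against siRNA 1. No paired analysis was possible because each treatment has 1 array. Signals near background, as for SGO1, CENPT and PLK1, limit the size of their folds.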

Other observations

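A gene of the wider kinetochore lists stood out in the other direction. DYNLT3, a dynein light chain that binds BUB3, had a signal of 12341 with SETD8 siRNA 1 and 16449.2 with SETD8 siRNA 2, against 7149.5 with the control siRNA. Both SETD8 siRNA values were above the control value, by 0.79 and 1.20 on the log2 scale, so the 2-fold mark was passed with SETD8 siRNA 2 alone. HASPIN, the kinase whose mark places the chromosomal passenger complex at centromeres, lay below the signal filter, with 38.9 with SETD8 siRNA 1 and 12.8 with SETD8 siRNA 2, against 133.3 with the control siRNA. Both genes were chosen after their values were seen.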
